A study of Mus musculus with 8 samples.

Results

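The 10 Frizzled receptor genes, Fzd1 to Fzd10, were examined in embryonic mouse stomachs at the E13.5 stage. They were chosen by their gene names among 26747 assembled loci, 23165 of which carry a name, and each had 1 locus of its own. The 2 genotypes compared had 4 libraries each. The first, Nkx3.2Cre;R26-YAP5SA and called YAP5SA here, carries a Cre recombinase expressed from Nkx3-2, a gene of the stomach mesenchyme, and at the Rosa26 locus a Cre-dependent YAP mutant that escapes inhibition by the Hippo kinases. The second was wild type. No library carried Cre without the YAP mutant, so effects of Cre and of active YAP cannot be told apart. The labels do not say whether a library came from 1 embryo or a pool, and the p-values refer to variation among these libraries, which may be technical. The tissue label was checked against markers: Barx1, a transcription factor gene of stomach mesenchyme, was at 158 ± 14.2 CPM (fragments per M fragments of the library, after scaling of library sizes) in YAP5SA and 171 ± 7.63 CPM in wild type stomachs (SD, n = 4), and Sox2, a gastric epithelial transcription factor gene, at 29.1 ± 9.21 CPM in YAP5SA and 75.3 ± 7.69 CPM in wild type stomachs.

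Frizzled proteins are receptors with 7 membrane-spanning segments whose extracellular cysteine-rich domain binds lipid-modified Wnt ligands. Together with the coreceptors Lrp5 and Lrp6 they signal through Dishevelled to stabilise beta-catenin, and with other partners they direct planar cell polarity and cell movement. The family falls into structural branches, Fzd1 with Fzd2 and Fzd7, Fzd5 with Fzd8, Fzd3 with Fzd6, and Fzd4, Fzd9 and Fzd10. In the gut, Wnt ligands pass between mesenchyme and epithelium, and both layers carry receptors.

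Of the 10 genes, 6 have a single annotated exon (Fzd1, Fzd2, Fzd7, Fzd8, Fzd9 and Fzd10), and the deposited fragments are given per locus. On mm10, Fzd1 lies on chromosome 5 from 4753839 to 4758216 (minus strand), Fzd7 on chromosome 1 from 59482134 to 59487299 (plus strand) and Fzd6 on chromosome 15 from 39006280 to 39038190 (plus strand). Fzd5 lies on chromosome 1 from 64730558 to 64737750 (minus strand) and Fzd4 on chromosome 7 from 89404366 to 89413114 (plus strand). Fzd2 lies on chromosome 11 from 102604431 to 102608058 (plus strand), Fzd3 on chromosome 14 from 65192441 to 65262463 (minus strand), and Fzd10 and Fzd9 on chromosome 5 from 128601106 to 128604093 (plus strand) and from 135248938 to 135251047 (minus strand). Annotated genes overlap 2 of these loci: Gm38058, on the opposite strand, lies in Fzd5, and Gm27263 and Gm9086 lie in Fzd3. The sources used here do not say whether counting used the strand, so fragments of these neighbours may be included.

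Promoter windows of 300 bases, 250 before and 50 from the annotated start (RefSeq, GRCm38.p6, the same build as mm10), were at hand for 6 of the 10 genes. Those of 2 genes that rose and 2 that fell in YAP5SA stomachs, as described below, are shown to set their start regions side by side. The windows are chr5:4758167-4758466 on the minus strand for Fzd1, chr1:59481897-59482196 on the plus strand for Fzd7, chr1:64737701-64738000 on the minus strand for Fzd5 and chr7:89404116-89404415 on the plus strand for Fzd4. Capitals mark the core of the TCF/LEF motif, CTTTGA or its reverse complement TCAAAG.
Fzd1: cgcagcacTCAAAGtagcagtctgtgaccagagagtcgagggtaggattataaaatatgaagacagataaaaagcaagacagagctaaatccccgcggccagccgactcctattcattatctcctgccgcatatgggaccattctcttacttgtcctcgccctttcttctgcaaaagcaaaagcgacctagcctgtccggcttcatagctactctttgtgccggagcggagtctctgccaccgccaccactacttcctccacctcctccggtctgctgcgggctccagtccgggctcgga
Fzd7: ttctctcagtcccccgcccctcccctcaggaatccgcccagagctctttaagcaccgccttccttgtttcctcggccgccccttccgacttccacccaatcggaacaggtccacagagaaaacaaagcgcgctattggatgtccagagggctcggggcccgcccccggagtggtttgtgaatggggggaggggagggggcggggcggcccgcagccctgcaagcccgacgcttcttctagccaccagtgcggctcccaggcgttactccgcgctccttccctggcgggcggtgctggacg
Fzd5: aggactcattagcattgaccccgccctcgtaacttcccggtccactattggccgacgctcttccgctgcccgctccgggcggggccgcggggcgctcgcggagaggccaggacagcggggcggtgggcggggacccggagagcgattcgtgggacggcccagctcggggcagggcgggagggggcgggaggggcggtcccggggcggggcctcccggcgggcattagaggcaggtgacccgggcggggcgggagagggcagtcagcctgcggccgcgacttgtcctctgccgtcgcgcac
Fzd4: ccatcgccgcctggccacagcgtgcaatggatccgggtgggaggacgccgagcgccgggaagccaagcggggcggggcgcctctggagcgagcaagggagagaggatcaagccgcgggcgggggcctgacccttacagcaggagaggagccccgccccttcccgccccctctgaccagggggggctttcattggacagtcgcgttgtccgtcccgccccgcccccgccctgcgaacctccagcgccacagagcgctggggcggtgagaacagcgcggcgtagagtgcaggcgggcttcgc
Both strands were searched for that core and for the core of the TEAD motif, GGAATG or CATTCC, bound by the DNA-binding partners of YAP. The TEAD core occurred in 0 of the 6 windows (Fzd1, Fzd4, Fzd5, Fzd7, Fzd9 and Fzd10). Of all 32851 promoter windows 14.7% hold it, and at that share 6 windows are too few to show a lack of it. The TCF/LEF core in the spelling searched occurred in the Fzd1 window only, at position -242 from the start, and 16.0% of all windows hold it. Only these exact strings were searched, so other forms of either core are not counted. The G and C content was 54.0% for Fzd1, 66.7% for Fzd7, 75.7% for Fzd5 and 72.7% for Fzd4, against a median of 52.7% over all windows. These letters describe short windows and say nothing of binding elsewhere.

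The summed level of the family was nearly the same in both genotypes, while its make-up differed. Levels of different genes are compared as FPKM (fragments per kilobase of transcript, scaled by depth by the authors). The sum over the 10 genes was 207, 192, 196 and 204 FPKM in YAP5SA replicates 1 to 4 and 186, 194, 201 and 201 FPKM in wild type replicates 1 to 4, with means of 199.8 ± 6.68 and 195 ± 6.98 FPKM (SD, n = 4). The ranges overlap. Fzd1, Fzd2 and Fzd7 together made up 66.6% ± 1.96 of the summed FPKM in YAP5SA stomachs (65.2% to 69.4%) and 58.5% ± 1.46 in wild type stomachs (56.5% to 60.0%; SD, n = 4). Fzd5 gave 4.66% ± 1.11 in YAP5SA and 9.28% ± 1.99 in wild type stomachs, and Fzd4 gave 10.5% ± 1.00 in YAP5SA and 13.55% ± 0.41 in wild type stomachs. Shares of a sum depend on each other and are given without a test.

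**Figure D1:**
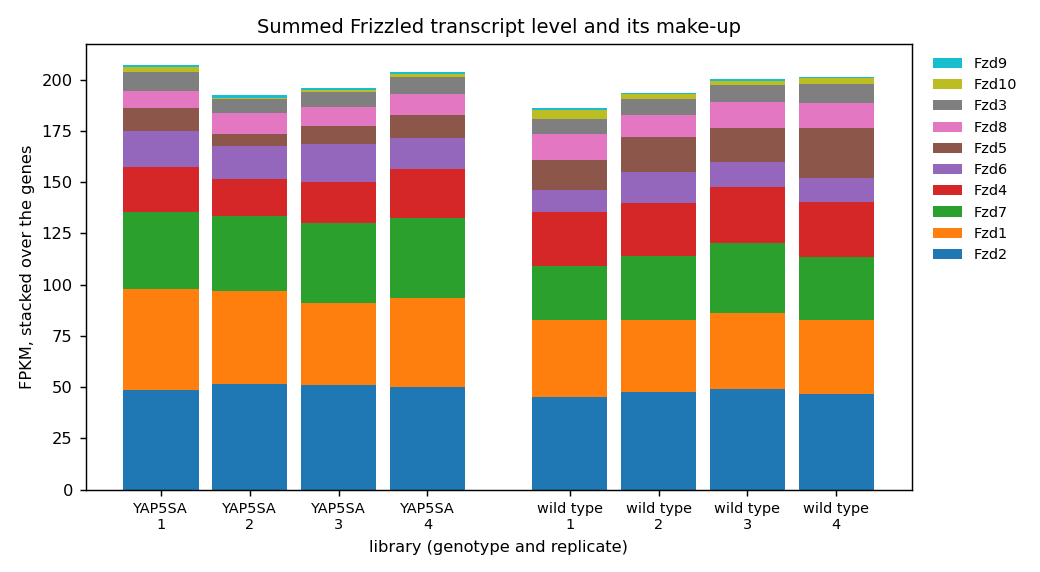
Stacked bars of FPKM per library for the 10 Frizzled genes, YAP5SA replicates 1 to 4 on the left and wild type replicates 1 to 4 on the right. The bars reach 192 to 207 FPKM in YAP5SA and 186 to 201 FPKM in wild type libraries, with the Fzd1 and Fzd7 blocks taller and the Fzd5 and Fzd4 blocks shorter in every YAP5SA library than in every wild type library, while the Fzd2 blocks overlap.

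Fzd2 had the highest FPKM level of the family in both genotypes, at 50.4 FPKM on average in YAP5SA and 47.1 FPKM in wild type stomachs. In YAP5SA stomachs it was followed by Fzd1 (44.2 FPKM), Fzd7 (38.3), Fzd4 (21.0), Fzd6 (16.7), Fzd8 (9.49), Fzd5 (9.36), Fzd3 (8.03), Fzd10 (1.34) and Fzd9 (0.990). Neighbours whose order there was not the same in all 4 libraries were Fzd2 and Fzd1 (this order in 3 of 4), Fzd8 and Fzd5 (2 of 4), Fzd5 and Fzd3 (3 of 4), and Fzd10 and Fzd9 (3 of 4). The ranges of Fzd4 and Fzd6 overlapped, but Fzd4 was higher in each of the 4 libraries. In wild type stomachs the order was Fzd2, Fzd1 (36.6 FPKM), Fzd7 (30.7), Fzd4 (26.5), Fzd5 (18.2), Fzd6 (12.4), Fzd8 (12.0), Fzd3 (8.25), Fzd10 (2.74) and Fzd9 (0.999). Only Fzd6 and Fzd8 did not keep their order there (Fzd6 was higher in 1 of 4 libraries), although ranges also overlapped for Fzd7 and Fzd4 and for Fzd5 and Fzd6. Fzd5 thus had rank 7 in YAP5SA and rank 5 in wild type stomachs.

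All 10 genes passed the filter on low counts. By edgeR's quasi-likelihood test with Benjamini-Hochberg adjustment over 14574 loci, 3 of the 10 rose in YAP5SA stomachs (Fzd6, Fzd7 and Fzd1), 3 fell (Fzd5, Fzd8 and Fzd4) and 4 did not pass an adjusted p of 0.05. Among these 4, Fzd10 passed when the replicate number was a block (adjusted p = 0.012). Of all tested loci, 18.9% were called without the block, 9.06% as higher and 9.85% as lower. The CPM of the genotypes did not overlap in 6 of the 10 genes, the same 6, against 23.3% of all tested loci. The median absolute log2 fold change was 0.33 over the 10 genes, 0.13 over all tested loci and 0.69 over the called loci.

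**Figure D2:**
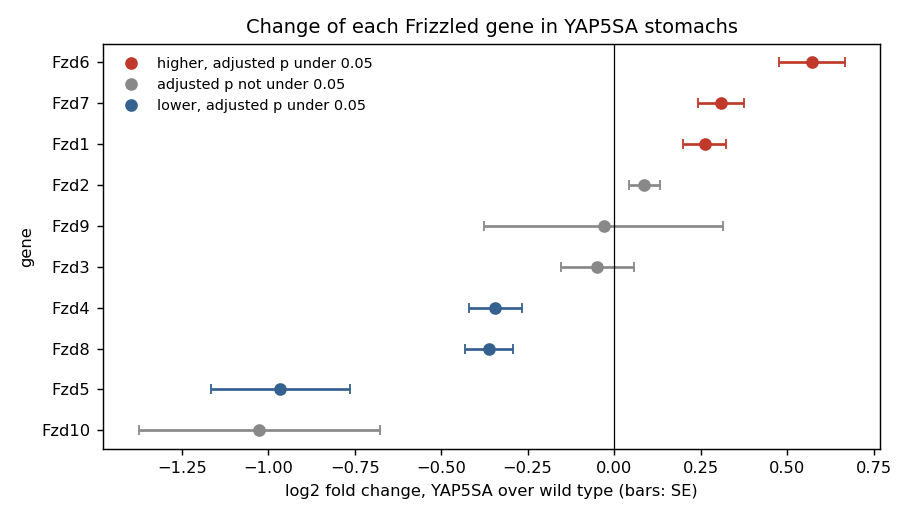
Log2 fold change of each Frizzled gene, YAP5SA over wild type, with SE as bars (4 libraries per genotype), ordered from highest to lowest. Fzd6, Fzd7 and Fzd1 lie above 0 and Fzd4, Fzd8 and Fzd5 below it with an adjusted p under 0.05, while the wide bars belong to the sparsely counted Fzd9 and Fzd10.

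Fzd6, a receptor best known for planar polarity of hair follicles, showed the largest rise of the 3. Its CPM were 68.6, 63.0, 71.4 and 52.5 in YAP5SA replicates 1 to 4, against 41.4, 44.2, 40.9 and 45.7 in wild type replicates 1 to 4. The lowest YAP5SA library, replicate 4, lay above the highest wild type library. The log2 fold change was 0.57 ± 0.10 (SE, n = 4, adjusted p = 0.0024), or 1.48-fold. On the FPKM scale the wild type libraries spread more, with 17.5, 16.0, 18.2 and 15.01 FPKM in YAP5SA and 10.5, 15.4, 12.2 and 11.5 FPKM in wild type replicates 1 to 4, and there the ranges overlapped. With limma on log2(FPKM + 1) the difference was 0.41 with an adjusted p of 0.051.

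Fzd7, a receptor of intestinal and gastric epithelial stem cells in adult mice, was at 176, 173, 183 and 184 CPM in YAP5SA replicates 1 to 4 and at 126, 148, 159.9 and 145 CPM in wild type replicates 1 to 4. Every YAP5SA library was higher than every wild type library, and wild type replicate 1 was the lowest of all. The rise was 0.31 ± 0.07 on the log2 scale (SE, n = 4, adjusted p = 0.0091). Its paralogue Fzd1 was at 208, 190.5, 168 and 183 CPM in YAP5SA replicates 1 to 4 and at 159.9, 151, 159 and 156 CPM in wild type replicates 1 to 4. The genotypes did not overlap, although YAP5SA replicate 3 came within 10 CPM of wild type replicate 1. The rise of Fzd1 was 0.26 ± 0.06 on the log2 scale (SE, n = 4, adjusted p = 0.015), or 1.20-fold.

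Fzd5, a receptor of gut epithelium that in the mouse intestine serves Paneth cell maturation, showed the largest fall among the called genes. Its CPM were 75.0, 40.7, 61.0 and 77.6 in YAP5SA replicates 1 to 4 and 102, 114, 113 and 168 in wild type replicates 1 to 4. YAP5SA replicate 2 was the lowest library and wild type replicate 4 the highest, and the genotypes did not overlap. It fell by 0.97 ± 0.20 on the log2 scale (SE, n = 4, adjusted p = 0.0074), to 0.512 of the wild type level. Without YAP5SA replicate 2 or wild type replicate 4 the fall was 0.78 and 0.79, with adjusted p of 0.014 and 0.017.

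Fzd8, the closest relative of Fzd5 (chromosome 18 from 9212101 to 9217015, plus strand), was at 39.7, 45.7, 40.1 and 44.2 CPM in YAP5SA replicates 1 to 4 and at 55.2, 51.7, 57.0 and 54.2 CPM in wild type replicates 1 to 4. The 4 libraries of each genotype lay close together and apart from the other genotype. Fzd8 fell by 0.36 ± 0.07 on the log2 scale (SE, n = 4, adjusted p = 0.0048). Fzd4, which also serves as the receptor of norrin in blood vessels of the retina, was at 145, 118, 133 and 157 CPM in YAP5SA replicates 1 to 4 and at 174, 170.1, 181 and 177 CPM in wild type replicates 1 to 4. YAP5SA replicate 2 was the lowest library for Fzd4, as it was for Fzd5. Fzd4 fell by 0.34 ± 0.08 on the log2 scale (SE, n = 4, adjusted p = 0.011).

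**Figure D3:**
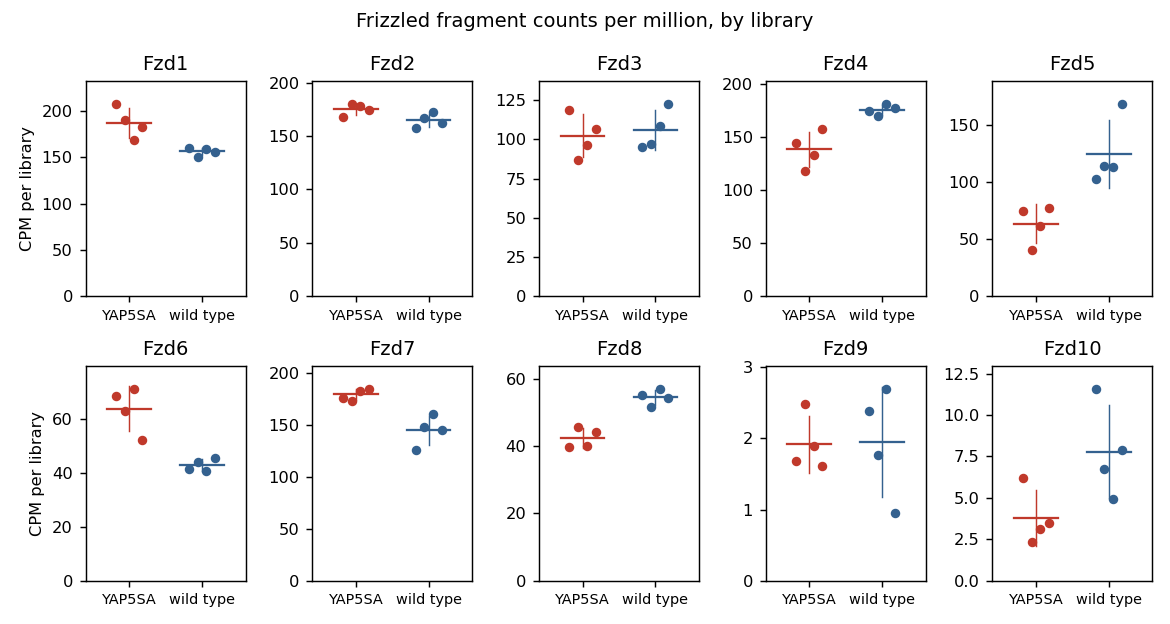
CPM of each Frizzled gene in every library, with a panel per gene, axes that start at 0, YAP5SA left of wild type, points in replicate order, a horizontal line at the mean and a vertical line of 1 SD to each side (n = 4). The points of Fzd1, Fzd6 and Fzd7 lie higher and those of Fzd4, Fzd5 and Fzd8 lower in YAP5SA without overlap.

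The other 4 genes did not pass the test. Fzd2, the member highest in FPKM, was at 168, 180.0, 178 and 175 CPM in YAP5SA replicates 1 to 4. In wild type replicates 1 to 4 it was at 158, 167, 172 and 163 CPM. The ranges overlapped, with a log2 difference of 0.09 ± 0.04 (SE, n = 4, adjusted p = 0.22). Fzd3, known for its part in axon guidance, was at 87.1 to 119 CPM in YAP5SA and 95.2 to 122 CPM in wild type libraries (log2 difference -0.05 ± 0.11, SE, n = 4, adjusted p = 0.80). Its direction turned when YAP5SA replicate 2 (0.04) or wild type replicate 4 (0.03) was left out.

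Fzd10 and Fzd9 were sparsely counted, which limits what their values can show. For Fzd10 the YAP5SA libraries held 52, 17, 23 and 26 fragments and the wild type libraries 73, 46, 33 and 50, which is 6.22, 2.35, 3.10 and 3.48 CPM in YAP5SA and 11.6, 6.75, 4.94 and 7.88 CPM in wild type replicates 1 to 4. In both genotypes replicate 1 was the highest library, and YAP5SA replicate 1 lay above wild type replicate 3. The log2 difference was -1.03 ± 0.35 (SE, n = 4, adjusted p = 0.067), and it was -1.05 with an adjusted p of 0.012 when the replicate number was a block. Fzd10 also passed by DESeq2 (adjusted p = 0.041) and without YAP5SA replicate 1 (-1.37, adjusted p = 0.017). For Fzd9 the YAP5SA libraries held 12 to 18 fragments and the wild type libraries 6 to 18, and the log2 difference of -0.03 ± 0.35 (SE, n = 4, adjusted p = 0.97) changed sign among the alternatives.

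Whether related receptors changed unequally was examined as the log2 ratio of CPM within 8 pairs of paralogues, by an exact two-sided permutation test over the 70 divisions of the 8 libraries. The smallest p this test can give is 0.029. The pairs Fzd3/Fzd6 and Fzd2/Fzd7 reached that value, and 0 of 8 pairs passed after adjustment over the pairs. That count was close to fixed by the design, since an adjusted p under 0.05 needs at least 5 pairs at the smallest p. The Fzd3/Fzd6 log2 ratio was 0.67 ± 0.28 in YAP5SA and 1.28 ± 0.15 in wild type stomachs (SD, n = 4), a difference of -0.61 without overlap (exact permutation p = 0.029, adjusted p = 0.11). For Fzd2/Fzd7 it was -0.03 ± 0.06 in YAP5SA and 0.19 ± 0.09 in wild type stomachs, a difference of -0.23 without overlap (exact permutation p = 0.029, adjusted p = 0.11, n = 4). Fzd5/Fzd8 stood at 0.54 ± 0.48 in YAP5SA and 1.16 ± 0.33 in wild type stomachs, and the ranges overlapped (exact permutation p = 0.057, adjusted p = 0.14, n = 4). Taken as same-numbered pairs of libraries, the difference had 1 sign in all 4 for Fzd3/Fzd6 and Fzd2/Fzd7 (lower in YAP5SA) and for Fzd1/Fzd2, Fzd9/Fzd10 and Fzd4/Fzd10 (higher in YAP5SA), with exact sign-flip p of 0.125 (n = 4 pairs), the smallest that 4 pairs can give. For Fzd1/Fzd7, the 2 paralogues that rose, the difference in log2 ratio was -0.06 (exact permutation p = 0.63, n = 4).

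**Figure D4:**
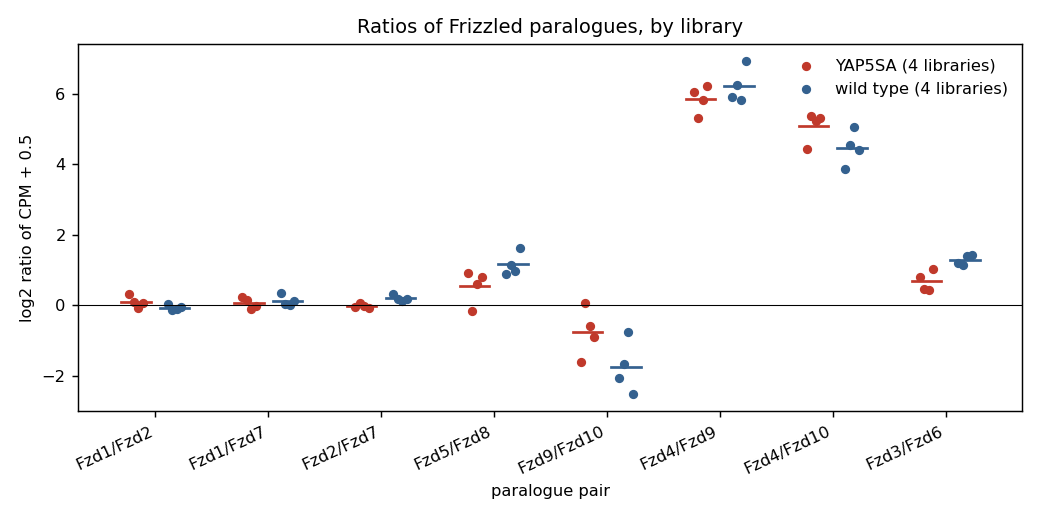
Log2 ratio of CPM + 0.5 for 8 pairs of Frizzled paralogues in every library, YAP5SA left of wild type, with a line at the mean of 4 libraries. The ratios of Fzd2/Fzd7 and Fzd3/Fzd6 are lower in YAP5SA without overlap, whereas the genotypes overlap in the other pairs.

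Markers of several cell types moved with genotype in the same stomach libraries, and in bulk tissue fewer cells of a type and less RNA per cell cannot be told apart. Each count of markers is to be read against the 9.06% of all tested loci that rose and the 9.85% that fell. Of 7 tested gastric epithelial markers 7 fell (median log2 fold change -0.72), 1 of which, Krt18 (adjusted p = 0.027), lost its call in 7 of 19 alternatives. Their summed level was 393 to 537 CPM in YAP5SA and 683 to 829 CPM in wild type libraries. The most abundant of them, the adhesion gene Cdh1, was at 127 ± 29.4 CPM in YAP5SA and 211 ± 27.8 CPM in wild type stomachs (SD, n = 4). YAP5SA replicate 2 had both the lowest Fzd5 and the lowest epithelial sum, at 393 CPM. In wild type stomachs the highest Fzd5 was in replicate 4, with an epithelial sum of 741 CPM, and replicate 1 combined the highest sum, 829 CPM, with the lowest Fzd5. The part of the epithelial markers in the fall of Fzd5 was not tested.

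Beside Fzd4, 1 of 8 endothelial markers rose and 0 fell, where 9.06% of all tested loci rose and 9.85% fell. The median log2 fold change of these markers was -0.02. Their sum was 709 to 809 CPM in YAP5SA and 623 to 743 CPM in wild type libraries. The marker that rose, the VEGF receptor gene Kdr, was at 212 ± 15.1 CPM in YAP5SA and 138 ± 11.6 CPM in wild type stomachs (SD, n = 4). The part of these markers in the fall of Fzd4 was not tested.

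**Figure D5:**
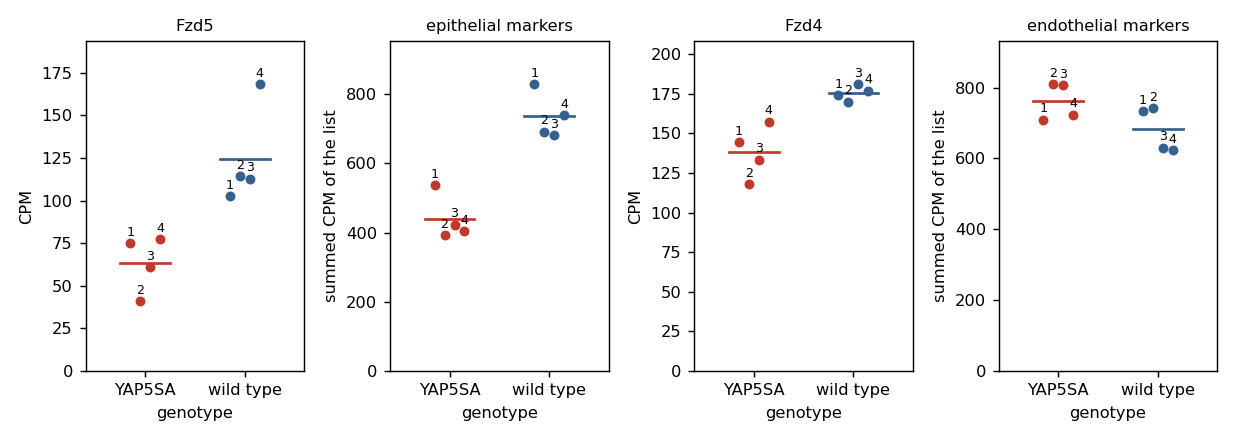
CPM of Fzd5, the summed CPM of gastric epithelial markers, CPM of Fzd4 and the summed CPM of endothelial markers, with a panel each, YAP5SA left of wild type, replicate numbers at the points and a line at the mean of 4 libraries. Fzd5 and the epithelial sum (393 to 537 CPM in YAP5SA and 683 to 829 CPM in wild type) are both lower in YAP5SA, while the endothelial sums overlap.

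The other marker lists ran as follows, to be read against the same shares of all tested loci. Of 8 neuronal markers 7 fell (sums of 271 to 347 CPM in YAP5SA and 527 to 614 CPM in wild type), led in abundance by the receptor gene Ret. Of 6 glial and neural crest markers 5 fell (68.8 to 105 CPM in YAP5SA and 168 to 195 CPM in wild type), led by Erbb3. Of 8 smooth muscle markers 5 fell (568 to 823 CPM in YAP5SA and 1181 to 1264 CPM in wild type), led by Myh11, though Lmod1 (adjusted p = 0.047) lost its call in 14 of 19 alternatives and Myocd (0.059) gained one in 3. Of 7 macrophage markers 6 rose (506 to 724 CPM in YAP5SA and 274 to 382 CPM in wild type), led by the mannose receptor gene Mrc1. Of 6 mesothelial markers 2 fell, Krt19 (adjusted p = 0.0017) and Upk3b (sums of the list 342 to 413 CPM in YAP5SA and 385 to 557 CPM in wild type). The most abundant of the list, Wt1, did not fall, with a log2 difference of 0.21 (adjusted p = 0.32). The mesothelial count was 1 without YAP5SA replicates 2, 3 or 4 or wild type replicates 2 or 3 and with limma on log2 FPKM, where Upk3b (adjusted p = 0.026) lost its call. It was 3 with DESeq2 and without wild type replicate 1 or 4, where Lrrn4 gained a call (adjusted p of 0.020, 0.035 and 0.019). It was 4 without YAP5SA replicate 1, where Msln and Lrrn4 gained one. Of 6 mesenchymal markers 1 fell, Foxf1a, at 87.5 ± 11.7 CPM in YAP5SA and 146 ± 4.89 CPM in wild type stomachs (SD, n = 4). The whole mesenchymal list summed to 732 to 905 CPM in YAP5SA and 891 to 1006 CPM in wild type libraries, and Pdgfra was its most abundant gene. Pdgfra itself had a log2 difference of -0.30 (adjusted p = 0.12), which passed with the replicate number as a block (0.016) or when wild type replicate 1 was dropped (0.039), so that 2 of the 6 were then lower. In the 8 lists, 0 markers with a locus were at 0 in any library. The part of these cell types in the changes of Fzd1, Fzd6, Fzd7 and Fzd8 was not tested.

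Genes that act with the Frizzled receptors were counted over 7 lists holding 68 different genes, of which 62 were tested. In YAP5SA stomachs 13 of them rose and 10 fell, where 9.06% of all tested loci rose and 9.85% fell, the shares against which each count below is to be read. The lists were chosen with earlier results known and no list was tested as a group. The part of the cell types above in the changes of these genes was not tested either. For the 62 genes the count of falls was 6 without wild type replicate 2, 6 without YAP5SA replicate 2 and 6 with limma on log2(FPKM + 0.1). Among 6 coreceptors and other Wnt receptors, 2 rose and 0 fell. The beta-catenin coreceptor genes Lrp5 (163.5 ± 10.4 CPM in YAP5SA and 166 ± 8.02 CPM in wild type) and Lrp6 (256 ± 15.3 CPM in YAP5SA and 253 ± 15.9 CPM in wild type, SD, n = 4) did not pass, with adjusted p of 0.87 and 0.86. Ror1, a receptor for Wnt5a, rose by 0.53 ± 0.13 (adjusted p = 0.0195) and Ryk, a Wnt-binding receptor, by 0.17 ± 0.05 (adjusted p = 0.028; SE, n = 4). With a single library left out, the adjusted p of Ror1 was 0.07 (YAP5SA replicate 3), 0.052 (YAP5SA replicate 4) and 0.055 (wild type replicate 4). That of Ryk was 0.077 (YAP5SA replicate 3), 0.052 (wild type replicate 1), 0.053 (wild type replicate 3) and 0.073 (wild type replicate 4).

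Regulators of Frizzled turnover at the cell surface formed the next list. Rnf43 and Znrf3 encode ubiquitin ligases that remove Frizzled proteins from the membrane, and R-spondins, through the Lgr receptors, block them. Of 11 tested genes of this list 1 rose and 4 fell. Rnf43 fell to 32.8 ± 7.63 CPM in YAP5SA, against 53.0 ± 3.65 CPM in wild type stomachs (adjusted p = 0.0068), while Znrf3 was at 54.7 ± 7.99 CPM in YAP5SA and 52.4 ± 4.15 CPM in wild type stomachs (adjusted p = 0.73). Rspo2 fell by 1.91 ± 0.17, Lgr4 by 0.30 ± 0.07 (adjusted p = 0.013) and Rspo1 by 0.51 ± 0.15 on the log2 scale. The adjusted p of Rspo1 was 0.035, and it came to 0.081, 0.097 and 0.084 when YAP5SA replicates 1, 2 and 3 were dropped in turn, 0.08 and 0.093 when wild type replicates 2 and 3 were, and 0.063 with limma on either log2 FPKM scale. Rspo3 rose to 72.3 ± 4.33 CPM in YAP5SA, against 49.7 ± 6.83 CPM in wild type stomachs (adjusted p = 0.003; SD, n = 4). Shisa2, which holds Frizzled proteins back inside the cell, had a log2 difference of 0.22 (adjusted p = 0.056) and passed without YAP5SA replicate 3 (0.031) and with RLE factors (0.0499), so that without YAP5SA replicate 3 the list had 2 rises and 3 falls.

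Among 10 tested secreted inhibitors, 2 rose and 2 fell. Wif1, which binds Wnt ligands, rose by 3.61 ± 0.35 on the log2 scale, to 20.1 ± 4.91 CPM in YAP5SA against 1.62 ± 0.98 CPM in wild type stomachs (adjusted p = 0.00015). Dkk2, which binds the Lrp coreceptors, rose by 1.21 ± 0.15, to 102 ± 15.6 CPM in YAP5SA against 43.8 ± 8.88 CPM in wild type stomachs. Dkk3 fell by 0.66 ± 0.08. Frzb, a secreted protein with a Frizzled-type Wnt-binding domain, fell by 1.10 ± 0.29 (adjusted p = 0.024; SE, n = 4). Dropping YAP5SA replicates 1, 2 and 4 in turn gave Frzb adjusted p of 0.055, 0.07 and 0.067, dropping wild type replicates 2 and 3 gave 0.08 and 0.055, and limma on log2(FPKM + 0.1) and log2(FPKM + 1) gave 0.052 and 0.056. The related Sfrp1, the most abundant gene of the list, was at 303 ± 24.1 CPM in YAP5SA and 306 ± 9.46 CPM in wild type stomachs (adjusted p = 0.91).

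The partners of Fzd4 in norrin and Wnt7 signalling did not pass: 3 were tested, and 0 rose or fell by edgeR, DESeq2, limma-voom or limma on log2 FPKM, while 1 (Reck) had an unadjusted edgeR p under 0.05 (0.041). The tetraspanin gene Tspan12 was at 53.4 ± 1.44 CPM in YAP5SA and 49.6 ± 4.14 CPM in wild type stomachs (adjusted p = 0.35), Gpr124 at 337 ± 28.6 CPM in YAP5SA and 326 ± 5.63 CPM in wild type stomachs (adjusted p = 0.65) and Reck at 126 ± 5.91 CPM in YAP5SA and 115 ± 7.37 CPM in wild type stomachs (adjusted p = 0.14; SD, n = 4). Norrin itself, Ndp, was too sparse to be tested, at 0.778 ± 0.48 CPM in YAP5SA and 1.53 ± 0.44 CPM in wild type stomachs. Of 13 genes for cytoplasmic partners and the destruction complex, 0 rose and 1 fell. That gene, the Dishevelled-binding Dact1, fell by 0.23 ± 0.05 (adjusted p = 0.015; SE, n = 4), with adjusted p of 0.0505 and 0.0557 when replicate 2 of YAP5SA or of wild type was dropped. Ctnnb1, which encodes beta-catenin, had a log2 difference of -0.16 (adjusted p = 0.058) and was lower by DESeq2 (0.012), with upper-quartile factors (0.043), with limma-voom (0.044) and with at least 50 fragments in 4 libraries (0.046), which makes 2 falls. The Dishevelled genes Dvl1, Dvl2 and Dvl3 had adjusted p of 0.88, 0.40 and 0.98.

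Of 12 planar cell polarity genes, 4 rose and 3 fell. Wnt11, a ligand of that pathway, rose by 1.77 ± 0.13, Wnt5a by 0.33 ± 0.09, Prickle1 by 0.32 ± 0.08 and Prickle2 by 0.30 ± 0.08, while the cadherin genes Celsr3, Celsr2 and Celsr1 fell by 0.95 ± 0.22, 0.64 ± 0.12 and 0.38 ± 0.12 on the log2 scale (SE, n = 4). Without YAP5SA replicate 3, Wnt5a and Prickle2 lost their calls (adjusted p 0.066 and 0.055), and in the FPKM fits Prickle2 had adjusted p of 0.84 to 0.86. Celsr1, at an adjusted p of 0.049, lost its call in 14 of 19 alternatives, and Celsr3 lost it with limma on log2(FPKM + 0.1) without and with a minimum level (0.069 and 0.077). With the replicate number as a block 6 genes of the list rose, Prickle3 (0.33, adjusted p = 0.036 against 0.0503 without it) and Daam2 (0.24, adjusted p = 0.029 against 0.10) being added. Without YAP5SA replicate 3, 2 rose. Prickle3 also passed by DESeq2 (0.044), with RLE factors (0.048) and in 3 further alternatives. The falls were 1 or 2 where Celsr1, Celsr3 or both lost their calls and 4 without YAP5SA replicate 1, where Daam1 (0.022) was added.

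Of 10 tested feedback targets of beta-catenin, 4 rose (Tcf7, Axin2, Lef1 and Nkd1) and 1 fell (Rnf43). Without YAP5SA replicate 1 the falls were 3, with Lgr5 (-0.97, adjusted p = 0.011) and Sp5 (-0.85, adjusted p = 0.043) added. The rise of Axin2 was 0.58 ± 0.07 and that of Nkd1 0.57 ± 0.11 (SE, n = 4, adjusted p = 0.00048 and 0.0056).

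The 3 Frizzled genes with the smallest p were set beside the genes whose profiles over the 8 libraries were most like theirs, by the root-mean-square distance of log2 CPM centred on each gene's mean, among 12453 loci of at least 5 CPM. For Fzd6 these were Bcat1 (0.080), Aif1l (0.094) and Nsdhl (0.0996), against a median distance of 0.33. For Fzd8 they were Inpp5a (0.045), Vmac (0.062) and Galnt10 (0.065), against 0.24. For Fzd5 they were Fhdc1 (0.15), Spock1 (0.16) and Hhip (0.16), against 0.60. The distances describe likeness over 4 YAP5SA and 4 wild type libraries.

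Depth differed between the genotypes. The YAP5SA libraries held 7.29 to 8.51 M fragments and the wild type libraries 6.33 to 6.92 M. Within genotypes, counts of the 10% of loci most densely covered by fragments followed the library total with a median log-log slope of 0.48, where 1 is proportional. Fzd1, Fzd2 and Fzd7 belong to these 1278 loci, at 0.29, 0.33 and 0.25 fragments per exonic base. Fzd4 (slope 0.79 in its class of 10% of loci) was covered at 0.16, Fzd5 at 0.094, Fzd6 at 0.080, Fzd3 at 0.058 and Fzd8 at 0.057 fragments per exonic base, with a slope of 1.02 in the class of Fzd5 and Fzd6. Fzd9 and Fzd10 were covered at 0.0059 and 0.012 fragments per exonic base, in classes with slopes of 1.93 and 1.87. The part of this in the sizes of the changes was not tested. Relative to the median change of loci of like density, the log2 changes were 0.31 for Fzd1, 0.13 for Fzd2, 0.35 for Fzd7, -0.35 for Fzd4, -0.98 for Fzd5, 0.56 for Fzd6 and -0.38 for Fzd8. That of Fzd9 was 0.11, against -0.03 in the main fit. In the class of Fzd10 the median log2 change was -0.10.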

How the data were processed

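RNA of 8 stomach libraries, 4 YAP5SA and 4 wild type, was analysed from gene-level tables. TopHat2 (2.0.9), Cuffdiff and Cufflinks (2.2.1) are listed, with mm10, per the submitters' processing notes. Read filters, strand use and the annotation are not given in the sources used here. The deposited raw fragments are estimated counts per locus and library (10.9% to 11.3% of the values were not whole, but those of the Frizzled genes were) and were rounded. FPKM were deposited by the authors per library, and their group FPKM equal the library means within 0.01. A table of group counts and 2 columns of scaled fragments were not used. Libraries are numbered from 0 in the files and from 1 in the labels, and the numbers were linked in that order. Loci without a name (3582, with 1.85% to 1.97% of the fragments) entered neither library sizes nor tests. Starts in the files count from 0 and are given here from 1.

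Tests used edgeR 4.0.16 (R 4.3.3): quasi-likelihood with robust estimation, TMM factors, default filterByExpr, genotype as the only term, 14574 loci, two-sided, with Benjamini-Hochberg adjustment and calls at an adjusted p under 0.05. The same fit was run on simulated counts with known changes and independent libraries, which shows nothing about pairing or depth in these data. Unless stated otherwise, an adjusted p comes from the edgeR test and a fold change is YAP5SA over wild type. The SE of a log2 fold change is the absolute change divided by the square root of the test's F value. It thus rests on the dispersion fitted over all libraries of both genotypes. Alternatives were other library-size factors, filters, DESeq2 1.42.0, limma 3.58.1 with voom or on log2 FPKM, a replicate block and leaving out each library. The comparison with loci of like density was chosen after seeing the data. Same-numbered libraries of the genotypes deviated together (correlations of deviations over loci 0.15 to 0.23, other pairings -0.26 to 0.097). The labels do not say that the numbers pair libraries, and the main tests leave them out. Pairing enters only through the replicate block and the sign flips, and a blocked value is printed where it changes the call of a gene in the report. Sign flips within pairs of the paralogue ratios were also added after seeing the data. Exon lengths are from GENCODE M21 on the same build. Each Frizzled gene is named. Also named were in each list the called genes of smallest p, up to 4, members that a small count needs, the most abundant marker of a cell type and the 3 genes most like each of 3 members. Other partners (such as Lrp5, Dvl1, Znrf3, Sfrp1, those of Fzd4 and genes whose call changed with the setting) were chosen after their values were seen. The receptors and all lists were chosen with earlier results of these data known. A gene with several loci was taken at its most abundant one, and genes joined with another in 1 locus were not counted.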

Additional observations from a re-analysis of the deposited data

How the results depend on the processing

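Fzd1, Fzd4, Fzd5, Fzd7 and Fzd8 kept their direction and call in each of 19 alternatives, with log2 fold changes of 0.22 to 0.31 for Fzd1, -0.39 to -0.26 for Fzd4, -1.06 to -0.78 for Fzd5, 0.25 to 0.37 for Fzd7 and -0.38 to -0.31 for Fzd8. Fzd6 kept both in 18 of 19, the exception being limma on log2(FPKM + 1) (adjusted p = 0.051), and ranged from 0.41 to 0.67. Fzd2 passed in 0 of its 19. Fzd10 passed in 3 of its 18, among them the replicate block (-1.05), which changed no other call of a Frizzled gene but added those of Prickle3, Daam2 and Pdgfra. Without single libraries, Fzd3 ranged from -0.12 to 0.039 and Fzd9 from -0.25 to 0.18. Fzd9 was also positive with limma-voom (0.036), under the replicate block (0.0019) and with limma on log2(FPKM + 0.1) (0.054) and log2(FPKM + 1) (0.011). The cause was not tested. The log2 ratio of Fzd1 to Fzd7 differed by -0.12 to 0.0196 without single libraries. Over all genes, 974 to 1521 loci were lower and 1004 to 1284 higher without single libraries. Among the partner lists 6 to 12 members fell without single libraries, and 6 with limma on log2(FPKM + 0.1), against 10. From fragments per kilobase of annotated exon, the summed Frizzled level was 192 in YAP5SA and 188 in wild type stomachs. What sets these sums apart from those of the deposited FPKM was not tested. Fzd9 and Fzd10, with 6 to 73 fragments per library, are limited by depth.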
